A study of Mus musculus with 24 samples.

Results

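The 10 genes described here are regulators and markers of the epithelial to mesenchymal transition: the transcription factors Zeb1, Zeb2, Snai1, Snai2, Twist1 and Twist2, the structural and adhesion genes Vim and Cdh2, and the surface receptors Axl and Cd44. They were chosen by name for their known roles, out of 21887 protein-coding mouse genes, with earlier results of these data known. For each gene and each library, the length under peaks was taken in a window that spans the gene body and 10 kb on each side.

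In an epithelial to mesenchymal transition, epithelial cells lose the cell junctions built on E-cadherin and take up a loose, motile form rich in vimentin and N-cadherin. The Zeb, Snail and Twist factors start and hold this state, largely by binding E-box elements in epithelial genes and silencing them, and the microRNAs of the miR-200 family hold the Zeb factors down. Small cell lung cancer usually grows as loosely attached cells with neuroendocrine genes switched on, and cells of this cancer that lose the neuroendocrine state often take on mesenchymal genes. H3K4me1 marks enhancers, H3K4me2 marks promoters and enhancers, and H3K27me3 is the repressive mark of Polycomb complexes. KDM6A (also called UTX) is an enzyme that erases H3K27me3, and it also belongs to the COMPASS-like complexes that place methyl groups on H3K4.

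The marks were mapped by chromatin immunoprecipitation with sequencing in 4 early-passage lines grown from tumours of the RPP mouse, a small cell lung cancer model named for its Rb1, Trp53 and Rbl2 deletions, which the tumours of both groups carry. The control lines, 159-1 and 1014, are sgControl RPP lines and Kdm6a wild-type. The mutant lines, 236L and 236R, are sgKdm6a RPP lines, from tumours in which a guide RNA targeted Kdm6a. All were untreated, kept in low-attachment plates and collected 24 h after plating. H3K4me1, H3K4me2 and H3K27me3 were mapped in all 4 lines and KDM6A in the 2 control lines, after an added crosslinking step with 2 mM DSG. Each genotype is thus 2 lines, and the labels do not say whether 236L and 236R came from separate animals.

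A gene was counted as higher in the mutant lines where each of them held at least 2 kb more than each control line, and as lower in the reverse case. With 2 lines against 2, the smallest p of an exact two-sided permutation test is 0.333 and no single gene can pass 0.05. Counts of genes that met the rule are therefore read against the share of all 21887 genes that did. The lists were chosen with earlier results known, so such a contrast describes the lists and is no test. Peak lists hold no read counts, so depth is unknown, and a list cannot tell a mark held by more cells from a stronger mark in each cell.

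List lengths and cell-type markers differed between lines. Runs of 4 values below are always in the order 159-1, 1014, 236L, 236R. H3K27me3 peaks covered 45.4, 110.3, 13.8 and 30.5 Mb, whereas cover ran from 73.7 to 87.6 Mb for H3K4me2 and from 109.2 to 134.6 Mb for H3K4me1. The 12 neuroendocrine markers all held H3K4me2 in every line, over 8.34, 9.59, 4.26 and 7.91% of their windows. That mark was at least 2 kb lower in both mutant lines at 3 of them, Dll3, Ncam1 and Calca, against 6.37% of all genes. Line 236L stood apart: it lay at least 2 kb below every other line at 6 of the 12 neuroendocrine markers for H3K4me2 (5.09% of all genes) and at 8 for H3K4me1 (11.2%). Also, of 14 macrophage markers, 13 held at least 2 kb more H3K4me2 there than in any other line, against 8.3% of all genes, and 13 did so for H3K4me1, against 24.6%. H3K4me2 covered 5.52, 5.73, 19.01 and 3.83% of the macrophage windows. At Ptprc, the pan-leukocyte CD45 gene, these lengths were 0, 0, 16.1 and 0.784 kb, and at Adgre1, the macrophage F4/80 gene, 0, 0, 4.97 and 0 kb. Fibroblast and endothelial markers did not set 236L apart, with 3.59, 3.60, 3.54 and 4.22% of their windows under H3K4me2. Several of the 10 genes, among them Zeb2, Vim, Axl and Cd44, are also active in macrophages, so counts are given with 236L and from 236R alone. The part of macrophage chromatin in the 236L values was not tested. By mark, the share of cover on chromosome X was 1.84, 1.95, 2.468 and 2.402% for H3K4me2, 0.474, 0.515, 1.407 and 1.18% for H3K4me1, and 0.132, 0.230, 1.28 and 3.85% for H3K27me3. It was higher in both mutant lines for each, and a difference in sex chromosomes cannot be told apart from genotype.

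H3K4me2 was higher in both mutant lines at 3 of the 10 genes, Zeb2, Twist1 and Axl, where the same rule held for 1.36% of all genes. None was lower, against 6.37% of all genes. H3K27me3 was lower in both mutant lines at 4 of 10, Twist1, Vim, Axl and Cd44, against 6.43% of all genes, and higher at none, against 0.425%. A gene can be called lower only where both control lines hold at least 2 kb of the mark. In 159-1 and 1014, H3K27me3 lay over 5 and 6 of the 7 start sites with an entry, against 6.93 and 10.9% of all genes. The share of 6.43% is not matched for this. H3K4me1 was higher at Zeb2 and Cd44 (5.3% of all genes) and lower at Snai1 (7.45%). Over the 10 genes the median of mutant mean minus control mean was 2.86 kb for H3K4me2, 1.61 kb for H3K4me1 and -6.04 kb for H3K27me3, where the medians over all genes were 0, 0.203 and 0 kb. The H3K4me2 median was 1.25 kb without 236L, the H3K4me1 median 2.48 kb without 159-1, and the H3K27me3 median -11.9 kb without 159-1 and -0.354 kb without 1014. Without 159-1, H3K27me3 was lower at 7 of the 10 genes, against 16.9% of all genes. With 236R as the sole mutant line, H3K4me2 stood at least 2 kb above both control lines at the same 3 genes, against 2.66% of all genes. With 236L as the sole mutant line, that was so at 6 genes, the same 3 and Snai1, Vim and Cd44, against 10.3%. For H3K4me1 these counts were 3 for 236R (Zeb2, Twist1 and Cd44, against 10.1% of all genes) and 5 for 236L (Zeb1, Zeb2, Snai2, Axl and Cd44, against 29.7%). For H3K27me3 they were 0 for 236R (2.12%) and 1, Cdh2, for 236L (4.02%).

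With a gap of any amount in place of 2 kb, H3K4me2 separated the genotypes at 7 of the 10 genes, all higher in the mutant lines, against 13.9% of all genes. None was lower, against 25.4%. H3K4me1 was then higher at 5 (25.1%) and lower at 2 (14.7%), and H3K27me3 lower at 5 (12.2%) and higher at none (2.13%). Line 236L exceeded each of the 3 other lines by at least 2 kb at 5 of the 10 genes for H3K4me2 (8.3% of all genes) and at 5 for H3K4me1 (24.6%). It lay below them by that margin at 0 (5.09%) and at 1, Cdh2 (11.2%).

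**Figure D1:**
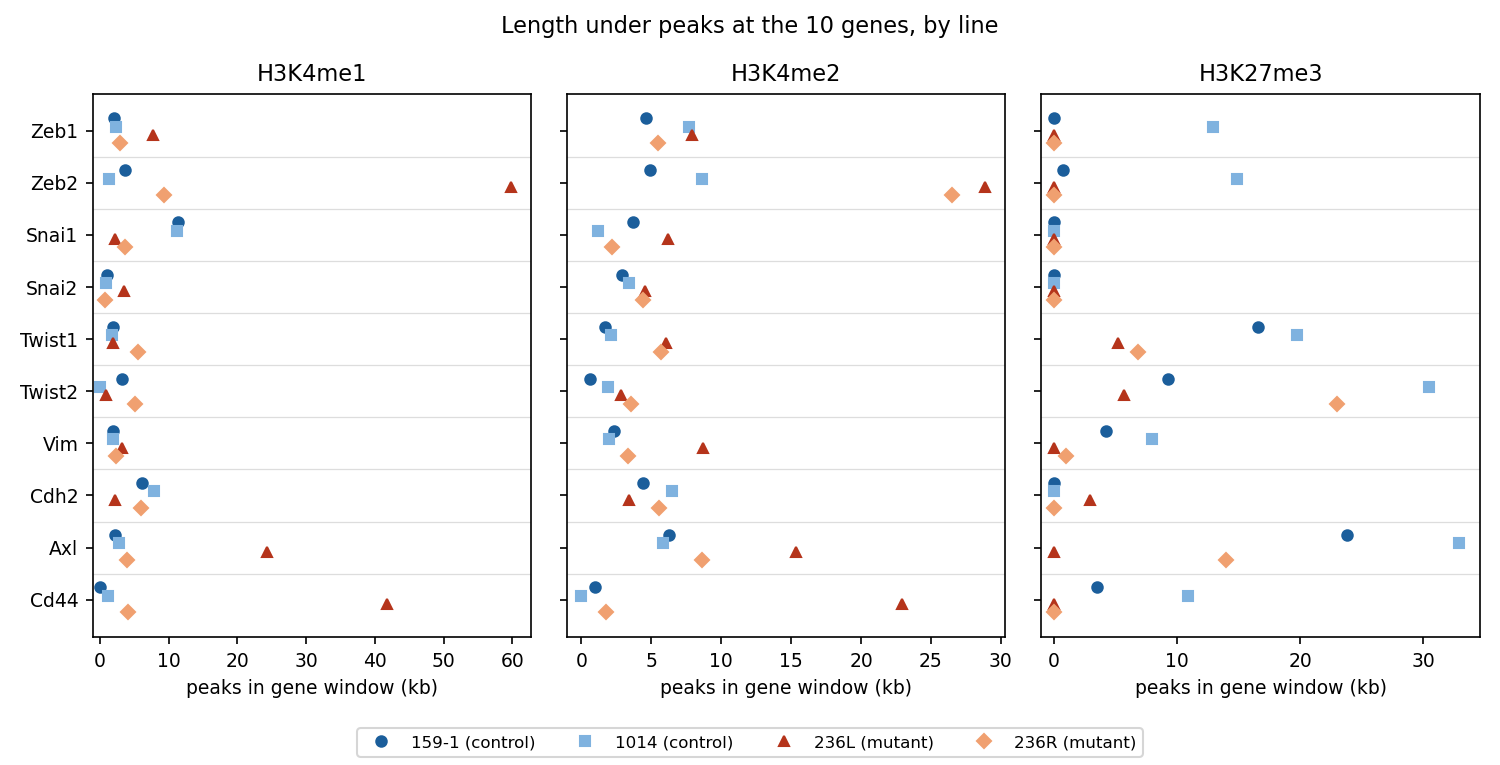
Length under peaks (kb, horizontal axes) in the window of each of the 10 genes, for 3 histone marks; each point is 1 line, blue for control and red or orange for mutant. For H3K4me2, both mutant points lie to the right of both control points at Zeb2 (28.9 and 26.5 against 4.92 and 8.64 kb), and for H3K27me3 the mutant points lie to the left at Twist1, Vim, Axl and Cd44; the 236L point alone lies far right at Cd44 for H3K4me1 and H3K4me2.

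The promoters of the 3 genes with separated H3K4me2 are shown because the H3K4me2 count rests on these genes. Each line gives bases upstream of the outermost start site, 5′ to 3′, from RefSeq on GRCm38.p6, with CpG dinucleotides in capitals. They are Zeb2 at chr2:45117443-45117692 (minus strand), Twist1 at chr12:33957421-33957670 (plus strand) and Axl at chr7:25788925-25788983 (minus strand). The Axl entry is shorter, and does not reach its start site, because only bases outside the annotated gene are printed.
Zeb2: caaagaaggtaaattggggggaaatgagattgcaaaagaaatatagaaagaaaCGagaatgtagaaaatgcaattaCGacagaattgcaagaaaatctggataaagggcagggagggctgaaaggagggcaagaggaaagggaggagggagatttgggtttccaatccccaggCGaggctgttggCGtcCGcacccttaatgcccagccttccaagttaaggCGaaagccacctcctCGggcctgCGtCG
Twist1: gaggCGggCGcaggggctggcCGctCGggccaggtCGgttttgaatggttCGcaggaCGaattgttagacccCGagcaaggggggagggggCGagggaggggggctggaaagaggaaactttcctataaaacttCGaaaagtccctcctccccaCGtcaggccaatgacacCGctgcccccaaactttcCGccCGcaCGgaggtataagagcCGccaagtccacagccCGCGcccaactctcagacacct
Axl: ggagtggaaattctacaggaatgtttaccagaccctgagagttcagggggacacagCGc

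The upstream 250 bases held 9 CpGs at Zeb2, 18 at Twist1 and 5 at Axl, where the median of 32851 promoters in the table was 6. Of the other members, 4 had an entry: Twist2 and Snai1 were CpG-rich with 23 and 27, and Vim and Cd44 held 8 and 5. Both strands of these 250 bases were searched for CACCTG, the E-box bound by Zeb and Snail factors, for CAGCTG and CAGATG, other E-boxes, and for TGAGTCA, the AP-1 site. The sole match in the 7 promoters was CACCTG at Snai1, from base -126 to -121. Over all promoters, CACCTG was found in 17.2%, CAGCTG in 13.0%, CAGATG in 14.4% and TGAGTCA in 4.46%.

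Zeb2 (chr2:44983512-45117442, minus strand), a zinc finger repressor of E-cadherin, differed most in H3K4me2. The mark covered 4.92 kb in 159-1, 8.64 kb in 1014, 28.9 kb in 236L and 26.5 kb in 236R, a mean of 6.78 ± 2.63 kb in the control lines and 27.7 ± 1.68 kb in the mutant lines (SD, n = 2 each). The groups were 17.9 kb apart, rank 1 among the gaps of all 21887 genes in that direction, on a scale in kb that favours long genes. The widest peak measured 1.51, 3.03, 18.1 and 14.9 kb, and in both mutant lines it ran over the outermost start site and into the gene.

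At Zeb2, 12.5 kb of H3K4me2 were shared by both mutant lines and lay under no control peak. A further 9.29 kb were found in 236L alone and 5.32 kb in 236R alone. The longest shared stretches were chr2:45103024-45108392, which began 9.05 kb into the gene, and chr2:45113212-45116360, from 1.08 to 4.23 kb into it. The start sites at 45113253 and 45113279, within the gene, carried H3K4me2 in the mutant lines alone, while the outermost start site carried the mark in all 4. Of the 12.5 kb, 9.09 kb lay under H3K27me3 of at least 1 control line, but only 0.259 kb under that of both.

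H3K27me3 at Zeb2 covered 0.708 kb in 159-1, 14.9 kb in 1014 and 0 kb in both mutant lines. In 1014 most of it was a 13.8 kb peak from chr2:45104132 to 45117910, over the start of the gene. The control lines thus differed from each other far more than 159-1 differed from the mutant lines, and the gap of 0.708 kb stayed under 2 kb. KDM6A covered 1.68 kb in 159-1 and 0.718 kb in 1014, in the same place, chr2:45109525-45110242, 7.20 kb into the gene. That site was wholly under H3K4me2 in all 4 lines.

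Enhancer-type H3K4me1 at Zeb2 was higher in both mutant lines but very unevenly: 3.63 kb in 159-1, 1.35 kb in 1014, 59.8 kb in 236L and 9.38 kb in 236R. Line 236L had 31 separate peaks across the window and 236R had 13, against 5 and 2 in the control lines. Stretches in 236L alone summed to 53.0 kb, those shared by both mutant lines and no control line to 5.67 kb. The separation between genotypes, 5.75 kb, was therefore set by 236R.

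Zeb1 (chr18:5591327-5775468), the close relative of Zeb2 with the same target elements, did not separate the genotypes. H3K4me2 covered 4.66 kb in 159-1, 7.71 kb in 1014, 7.91 kb in 236L and 5.46 kb in 236R, so the ranges overlapped, and no stretch was shared by both mutant lines without a control line. H3K4me1 covered 2.01, 2.38, 7.77 and 2.995 kb, with a gap of 0.617 kb. H3K27me3 was found in 1014 alone, over 12.9 kb. At KDM6A, 159-1 had 2.44 kb and 1014 had 0.711 kb, in the same place near the low-coordinate end of the gene, where all 4 lines had H3K4me2.

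Snai1 (chr2:167538195-167542814, plus strand), which encodes Snail, went the other way for H3K4me1. The mark covered 11.4 kb in 159-1 and 11.2 kb in 1014, but 2.21 kb in 236L and 3.73 kb in 236R, which puts both mutant lines 7.48 kb or more below both control lines. A single peak of 10.5 kb covered the whole gene in 159-1. Both control lines and neither mutant line held 6.47 kb of it, mainly chr2:167543466-167546350, downstream of the gene, and chr2:167540322-167542959, in its 3′ part. A KDM6A site of both control lines, chr2:167545159-167545756, lay within the first of these: it was wholly under H3K4me1 in both control lines and in no H3K4me1 peak of either mutant line.

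The start site of Snai1 kept its marks in every line. It was under H3K4me1 and H3K4me2 in all 4 lines and under KDM6A in both control lines, and no line had H3K27me3 anywhere in the window. H3K4me2 covered 3.71 kb in 159-1, 1.201 kb in 1014, 6.21 kb in 236L and 2.20 kb in 236R, so the genotypes overlapped, with the longest cover in 236L. There the mark ran over the whole gene (4.62 kb), whereas its cover of the gene body was 1.43 kb in 159-1, 0.328 kb in 1014 and 0.341 kb in 236R.

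Snai2 (chr16:14705852-14709395), which encodes Slug, differed little. H3K4me2 covered 2.90 kb in 159-1, 3.42 kb in 1014, 4.58 kb in 236L and 4.39 kb in 236R, a gap of 0.977 kb with the mutant lines above. H3K4me1 covered 1.10, 0.873, 3.48 and 0.813 kb in the same order, with overlap, and H3K27me3 was at 0 kb in all 4 lines. KDM6A was found in 159-1, over 0.632 kb, and not in 1014.

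Twist1 (chr12:33957671-33959831, plus strand), a basic helix-loop-helix factor active in mesoderm and in metastatic cells, held both marks of opposite kind at once. H3K4me2 covered 1.72 kb in 159-1, 2.13 kb in 1014, 6.04 kb in 236L and 5.68 kb in 236R, a mean of 1.92 ± 0.291 kb against 5.86 ± 0.253 kb (SD, n = 2 each). The genotypes were 3.55 kb apart, rank 103 of all genes. H3K27me3 went the other way, with 16.6 kb in 159-1, 19.7 kb in 1014, 5.25 kb in 236L and 6.83 kb in 236R, or 74.9, 89.0, 23.7 and 30.8% of the window.

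The differences at Twist1 lay on either side of the start site rather than on it. The start site itself was under H3K4me1, H3K4me2 and H3K27me3 in every line and under KDM6A in both control lines. Both mutant lines and no control line held 2.12 kb of H3K4me2, mainly chr12:33956066-33957150, just upstream, and chr12:33967004-33967734, 9.33 kb downstream of the start site. All 2.12 kb lay under H3K27me3 of both control lines. The domain of H3K27me3 had a peak of 15.7 kb in 159-1 and of 23.0 kb in 1014, and its widest pieces were 2.93 kb long in 236L and 2.32 kb in 236R.

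Both marks lay on the same bases of the Twist1 window over 1.72, 2.13, 3.66 and 4.21 kb. Of the H3K4me2 in the mutant lines, then, much fell on bases that held H3K27me3 in the same line. H3K4me1 covered 1.95, 1.73 and 1.88 kb in 159-1, 1014 and 236L and 5.48 kb in 236R, which stood alone here. The single KDM6A site, chr12:33957603-33958495, overlapped the start site.

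Twist2 (chr1:91801461-91848034, plus strand), the relative of Twist1 in dermis and bone precursors, kept H3K27me3 in every line. It covered 9.26 kb in 159-1, 30.4 kb in 1014, 5.71 kb in 236L and 23.0 kb in 236R, an order unrelated to genotype. H3K4me2 covered 0.637, 1.94, 2.82 and 3.57 kb in the same order, a gap of 0.873 kb with the mutant lines above. In all 4 lines the start site was under both marks. H3K4me1 ranged from 0 kb in 1014 to 5.16 kb in 236R, and neither control line had KDM6A in the window.

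**Figure D2:**
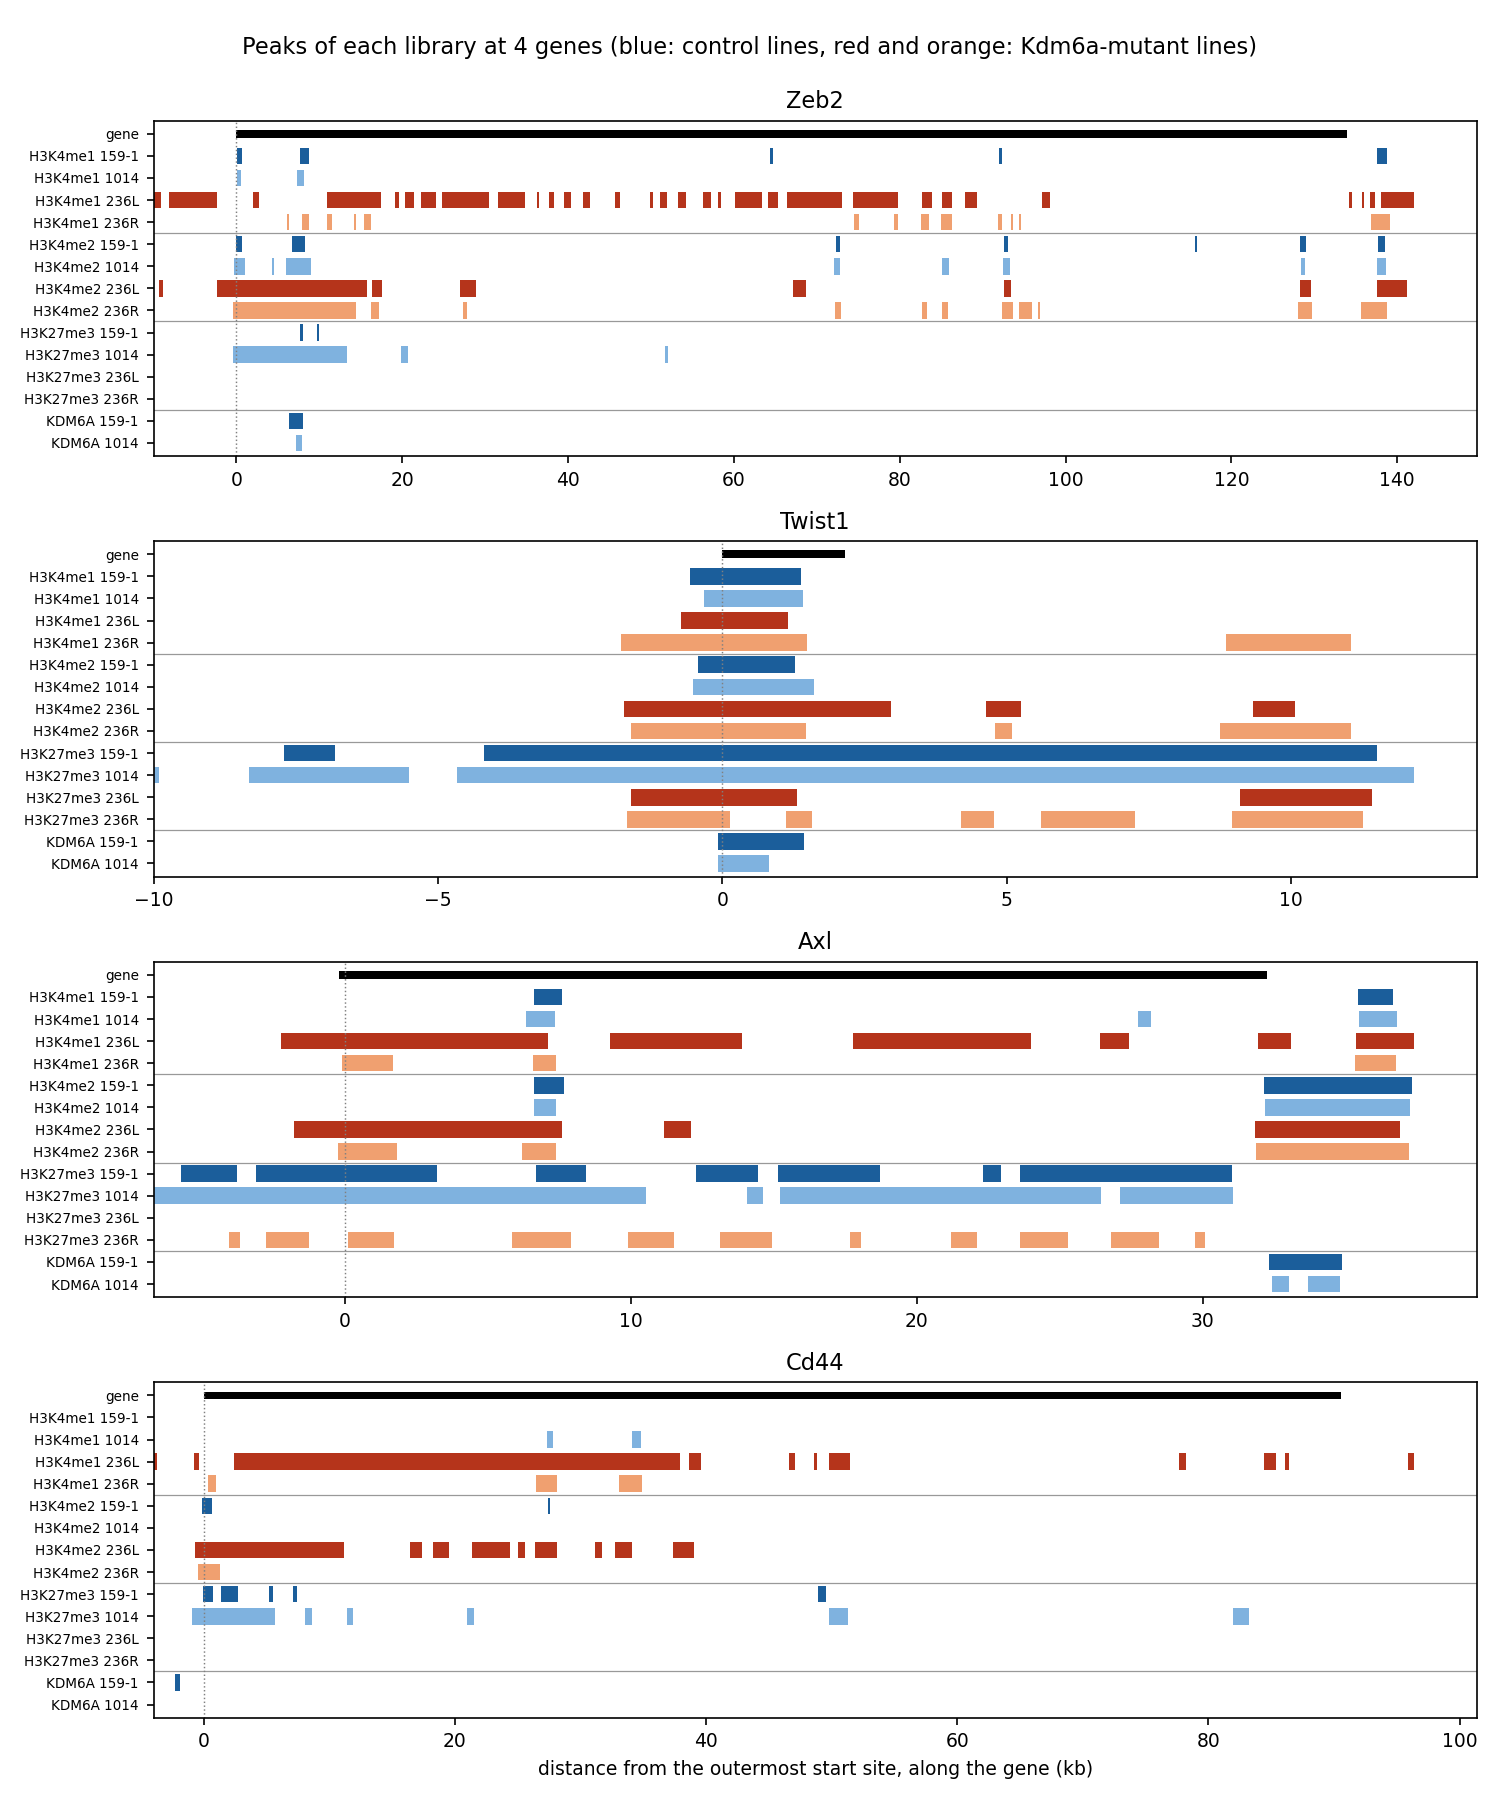
Peaks of each library at Zeb2, Twist1, Axl and Cd44 along the gene, in kb from the outermost start site (dotted line), with the gene as a black bar, control lines in blue and mutant lines in red and orange. At Zeb2 a wide H3K4me2 peak covers the start of the gene in both mutant lines, at Twist1 H3K27me3 lies in shorter pieces in both mutant lines, and at Cd44 the long H3K4me1 and H3K4me2 domains belong to 236L alone.

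Vim (chr2:13574311-13582826, plus strand), the intermediate filament gene of mesenchymal cells, had less H3K27me3 in the mutant lines. The mark covered 4.202 kb in 159-1, 7.98 kb in 1014, 0 kb in 236L and 0.978 kb in 236R, a gap of 3.22 kb. It lay over the start site in the control lines alone, with chr2:13573645-13574854 as the longest stretch of both control lines that neither mutant line held. H3K4me2 was on the start site in all 4 lines and covered 2.38 kb in 159-1, 1.998 kb in 1014, 8.70 kb in 236L and 3.31 kb in 236R. The gap of 0.938 kb was set by 236R, and the 5.39 kb found in 236L alone made up most of the rest. H3K4me1 covered 1.985, 1.93, 3.205 and 2.38 kb. No KDM6A was found in either control line.

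Cdh2 (chr18:16588877-16809246), which encodes N-cadherin, met the rule for no mark. H3K4me2 covered 4.45, 6.52, 3.44 and 5.55 kb, with overlapping ranges. H3K4me1 covered 6.07, 7.89, 2.20 and 5.94 kb, so both mutant lines were lower, by 0.135 kb in the case of 236R. This direction was not stable: with −log10 q of at least 3 the mutant mean was 3.77 kb higher and the gene met the rule for higher, and at equal covered length it was 2.42 kb higher. KDM6A was longest here among the 10 genes, with 2.71 kb in 159-1 and 3.14 kb in 1014, at the high-coordinate end of the gene, where all 4 lines had H3K4me2. The same place was under H3K27me3 in 236L alone (2.97 kb), and the other 3 lines had no H3K27me3 in the window. N-cadherin is also made by neuroendocrine and neural cells, so Cdh2 is not a mesenchymal marker alone.

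Axl (chr7:25756500-25788924, minus strand), a receptor tyrosine kinase linked to invasion and drug tolerance, met the rule for H3K27me3 and H3K4me2. H3K27me3 covered 23.8 kb in 159-1 and 32.9 kb in 1014, 0 kb in 236L and 13.95 kb in 236R, a gap of 9.86 kb. H3K4me2 covered 6.26 kb in 159-1, 5.83 kb in 1014, 15.4 kb in 236L and 8.61 kb in 236R, a gap of 2.35 kb, rank 235 of all genes. The start site at 25788733 was under H3K27me3 in the control lines alone and under H3K4me1 and H3K4me2 in the mutant lines alone. In 236R, however, an H3K27me3 peak lay from 0.117 to 1.736 kb into the gene, on bases that also held H3K4me2 in that line.

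The H3K4me2 that both mutant lines shared at Axl and no control line held measured 2.76 kb. Of this, chr7:25786897-25788958, over the start site, made up 2.06 kb, all under H3K27me3 of both control lines. A further 6.90 kb were found in 236L alone and 0 kb in 236R alone. Most of the control cover lay elsewhere: downstream of the gene, towards Hnrnpul1, the lines had 5.09, 5.01, 4.66 and 4.96 kb of H3K4me2, while the gene body had 1.165, 0.821, 9.13 and 3.61 kb. Both KDM6A sites of the window, chr7:25753932-25755066 and chr7:25755726-25756325, lay on that downstream side. Hnrnpul1, an RNA-binding protein gene, is the sole other protein-coding gene in any of the 10 windows.

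H3K4me1 at Axl covered 2.23, 2.81, 24.4 and 3.98 kb. The genotypes did not overlap, but the gap of 1.17 kb stayed under 2 kb. Of the 236L cover, 20.4 kb lay in no other line.

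Cd44 (chr2:102811141-102901669, minus strand), the hyaluronan receptor, differed widely between the mutant lines. H3K4me1 covered 0 kb in 159-1, 1.26 kb in 1014, 41.8 kb in 236L and 4.09 kb in 236R, a gap of 2.83 kb. A peak of 35.6 kb in 236L held most of it. H3K4me2 covered 0.994 kb in 159-1, 0 kb in 1014, 22.9 kb in 236L and 1.76 kb in 236R, so the genotypes were 0.767 kb apart. Of the 236L cover, 38.3 kb of H3K4me1 and 21.0 kb of H3K4me2 lay in no other line, against 2.24 and 0.986 kb shared by both mutant lines and no control line.

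H3K27me3 at Cd44 covered 3.50 kb in 159-1, 10.9 kb in 1014 and 0 kb in both mutant lines. It lay over the start site in both control lines. H3K4me2 was on that start site in 159-1, 236L and 236R. KDM6A was found in 159-1 alone, over 0.398 kb, upstream of the gene.

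**Figure D3:**
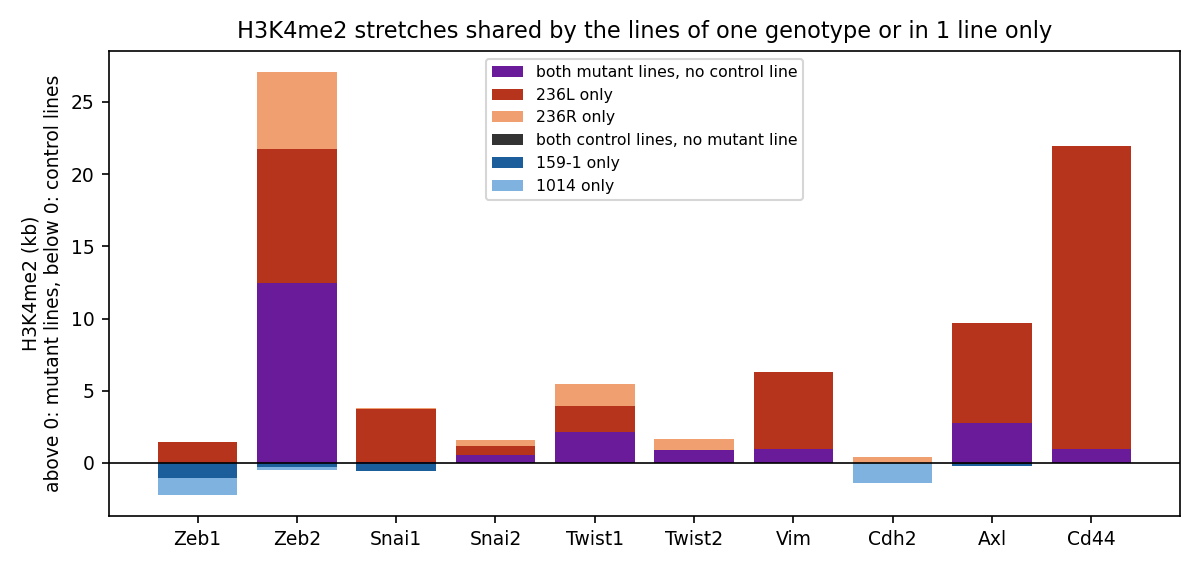
H3K4me2 (kb) in the window of each gene, split by the lines that hold it: above 0, stretches of both mutant lines and no control line or of 1 mutant line alone; below 0, the same for control lines. Zeb2 has 12.5 kb shared by both mutant lines, whereas at Cd44 nearly all of the added length, 21.0 kb, belongs to 236L alone.

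Set side by side, the 10 genes differed in how far the mutant lines agreed. At Zeb2, Twist1 and Axl, H3K4me2 stretches of both mutant lines and no control line summed to 12.5, 2.12 and 2.76 kb. Line 236L alone held a further 9.29, 1.795 and 6.90 kb there, so at Axl its own part was the longer. Such stretches were not measured over all genes. At Snai1, Vim and Cd44, 236L alone held 3.65, 5.39 and 21.0 kb, and the stretches shared by both mutant lines measured 0.102, 0.938 and 0.986 kb.

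KDM6A covered at least 0.5 kb in both control lines at 6 of the 10 genes: Zeb1, Zeb2, Snai1, Twist1, Cdh2 and Axl. Over all genes that share was 54.9%. Of the 3 genes with separated H3K4me2, all had KDM6A by this count, at Axl only downstream of the gene, towards Hnrnpul1. At Zeb2, Twist1 and Axl, the KDM6A sites of both control lines lay wholly under H3K4me2 in both of those lines. H3K4me2 of both mutant lines and no control line thus had 0 kb under these sites by construction. Of the 4 genes with less H3K27me3, Twist1 and Axl had KDM6A by this count, and Vim and Cd44 did not.

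H3K4me2 and H3K27me3 lay on the same bases, over at least 0.5 kb in both lines of a genotype, at Twist1, Twist2, Vim and Axl in the control lines (6.78% of all genes) and at Twist1 and Twist2 in the mutant lines (5.89%). At Vim the shared bases measured 2.24, 1.998, 0 and 0.695 kb. At Axl they measured 1.01, 0.758, 0 and 2.84 kb, with the longest stretch in 236R. Of the 7 genes with a start site in the table, H3K27me3 lay over the start site of 5 in 159-1 and 6 in 1014 but of 2, Twist1 and Twist2, in each mutant line. For all 17492 protein-coding genes with an entry, the shares were 6.93, 10.9, 7.66 and 5.37%. H3K4me2 lay over 6 start sites in 159-1, over 5 in 1014 and over all 7 in each mutant line, where 63.1, 61.7, 65 and 63.5% of all genes had it.

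The H3K27me3 count moved with list length, which was shorter in the mutant lines. With each list trimmed to the same covered length by its −log10 q-values, 1 of the 10 genes, Twist1, was still lower by at least 2 kb, against 1.45% of all genes. At −log10 q of at least 3, 2 genes were lower by that margin, Twist1 and Twist2, against 2.67%. Twist2 had not met the rule in the full lists, and Vim, Axl and Cd44 no longer met it.

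Other genes of the transition were set beside the 10, in lists likewise chosen by role, with earlier results of these data known. Among 14 epithelial genes, H3K4me2 was lower in both mutant lines at 5, against 6.37% of all genes, and higher at none. H3K4me1 was lower at 1 (7.45% of all genes), Cdh1, the E-cadherin gene that Zeb and Snail factors repress. H3K4me2 at Cdh1 covered 30.7, 23.3, 8.06 and 11.48 kb. Ovol1, a repressor of Zeb1 in epithelia, held 16.8, 13.7, 5.63 and 8.54 kb, and the keratin gene Krt8 held 15.98, 13.995, 2.80 and 9.25 kb. Epithelial windows had little H3K27me3 except in 236L, with totals of 8.56, 0.568, 36.0 and 9.85 kb over the 14 genes, and none passed the rule for that mark. The median difference in H3K4me2 over the list was -1.87 kb, against 2.86 kb over the 10 genes and 0 kb over all genes. Line 236L lay at least 2 kb below every other line at 7 of the 14 genes for H3K4me2 (5.09% of all genes). For H3K4me1 it did so at 6 (11.2%). It lay above them by that margin at 0 (8.3%) and 3 (24.6%). Line 236R lay below every other line at 0 (2.61%) and 1 (5.6%), and above at 0 (0.987%) and 0 (4.28%).

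Among 12 other mesenchymal regulators, H3K4me2 was higher at 3 (1.36% of all genes), Runx2, Prrx1 and Sox9, and lower at none. Runx2, the osteoblast factor, held 4.90, 6.84, 21.6 and 13.4 kb. Prrx1, a homeobox factor of limb and craniofacial mesenchyme, held 0.430, 0, 6.47 and 3.41 kb. H3K27me3 was lower at 7 of the 12, against 6.43% of all genes, most of all at Runx2, with 63.2, 143.0, 0 and 10.97 kb, and at Hmga2, a chromatin protein of embryonic and invasive cells, with 62.1, 122.0, 4.00 and 11.8 kb. Its median difference was -9.13 kb, against -6.04 kb over the 10 genes. Here too, a gene could be called lower only where both control lines held at least 2 kb.

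Ligands, receptors and Smads of the TGF-beta pathway, the best known inducer of the transition, met the rule at few genes, and the shares of all genes are those given above. Of 12 genes, H3K4me2 was higher at none and lower at 1, Smad2, with 8.34, 9.38, 5.15 and 4.14 kb. H3K4me1 was higher at the receptor gene Tgfbr2 (6.72, 5.55, 47.1 and 8.88 kb) and at Skil, which encodes a partner protein that restrains Smads (5.30, 3.81, 15.8 and 9.25 kb) and lower at Smad2, and H3K27me3 met the rule at none. Among 14 mesenchymal effectors, H3K4me2 was higher at 3 (1.36% of all genes), the matrix genes Tnc and Sparc and the cadherin gene Cdh11, and H3K27me3 was lower at 3 (6.43%), the integrin genes Itga5 and Itgav and Cdh11. Among 14 macrophage markers, H3K4me2 met the rule at none in either direction, since 236R did not exceed the control lines at these genes by that margin, and H3K27me3 was lower at 2, Itgam and Cd14. Among 14 fibroblast and endothelial markers H3K4me2 was higher at 1, Pdgfra, and H3K27me3 was lower at 3, Col1a2, Cdh5 and Tie1. The share of all genes with lower H3K27me3 was 6.43%.

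**Figure D4:**
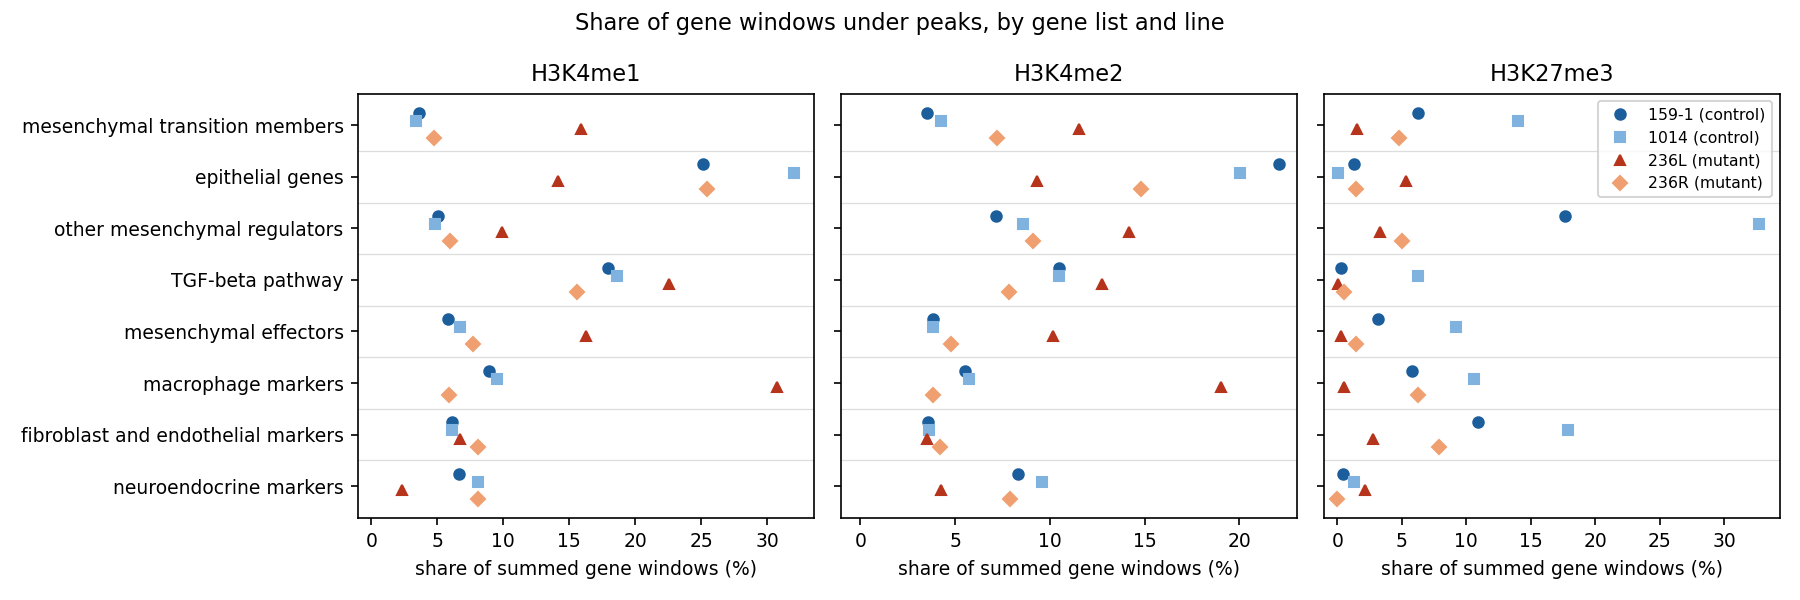
Share of the summed gene windows under peaks (%, horizontal axes) for the 10 genes and 7 other lists, by mark; each point is 1 line. For H3K4me2 the 10 genes hold 3.52, 4.25, 11.53 and 7.23%, the epithelial genes go the other way, and the macrophage markers are high in 236L (19.01%) and low in 236R (3.83%).

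By summed length, H3K4me2 over the 10 genes came to 32.6, 39.4, 106.9 and 67.1 kb. In 236R the 10 genes thus held more than in either control line. Of the 236R sum, 26.5 kb lay at Zeb2 alone, where 159-1 and 1014 held 4.92 and 8.64 kb. The macrophage windows held less H3K4me2 in 236R (29.5 kb) than in either control line (42.6 and 44.2 kb). H3K4me1 over the 10 genes came to 33.7, 31.4, 147.6 and 43.9 kb, with most of the excess in 236L. H3K27me3 came to 58.1, 129.9, 13.9 and 44.7 kb.

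The most alike gene to each member was taken as the protein-coding gene with the smallest mean absolute difference in the covered share of the window over the 14 libraries, in percentage points, which are shared libraries and no independent measurements. The nearest gene has the smallest of these differences, so it lies below the median over all genes by construction. Twist1 was nearest to Dusp15, at 4.67 points, where the median over all genes was 22.6. H3K4me2 covered 12.8, 13.04, 20.99 and 21.3% of the Dusp15 window. Axl was nearest to Ltbp2, a matrix protein gene of the latent TGF-beta binding protein family, at 4.50 points against a median of 17.5, with H3K27me3 over 44.6, 65.2, 0.425 and 27.2% of its window. Cd44 was nearest to Ccl7, a chemokine gene, at 0.981 points against a median of 6.83, and Ccl7 held H3K4me2 in 236L alone (21.9%). Vim was nearest to Rprm at 2.24 points and Twist2 to Col26a1 at 2.32. The nearest genes to Zeb1, Snai1, Snai2 and Cdh2 were Decr1, Pdlim4, Prpf4 and Klf12, at 0.427, 2.82, 1.205 and 0.331 points.

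Heights of peaks are the authors' folds and were read only as ranks within a list. At Twist1 the highest H3K4me2 peak stood at the 98.3rd percentile of its list in 159-1, the 64.3rd in 1014, the 86.6th in 236L and the 99.5th in 236R. At Zeb2 the highest peak stood at the 90.8th, 95.7th, 63.8th and 63.9th percentiles of lists that differ in length. At Axl the highest H3K4me2 peak was the one on the downstream side in every line. The highest H3K27me3 peak of 1014 stood above the 99th percentile at Zeb1, Zeb2, Twist1 and Vim.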

How the data were processed

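The deposited files used here are 14 peak lists, 1 per library, with none for the 10 inputs; replicates were not pooled. The submitters' processing notes name Bowtie2 2.4.2, MACS3 3.0.0a7 and the build mm10; no calling threshold or treatment of duplicates is given in the sources used here. Each broad peak comes with a score, a fold enrichment (a linear ratio), a −log10 p-value and a −log10 q-value, all deposited by the authors. The score was not used, folds served as ranks within a list, and q-values served to filter or trim lists.

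Peaks of each library were merged on the 19 autosomes and both sex chromosomes (Python 3.11.15, NumPy 2.4.6); 337 peaks on other contigs were set aside. Cover was summed in each gene window from RefSeq gene bounds on GRCm38.p6, the assembly of mm10. The count rule was a gap of at least 2 kb between groups. Cover and counts were tested on simulated data. Depth is unknown, so no interval is given.

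All 10 genes are named. From other lists, up to 3 genes per mark with the largest gap are named. Sites are stretches of at least 0.5 kb, the longest 3 per gene. The members and lists were chosen with earlier results of these data known. For H3K4me2, the deposited names of the 2 control lists name the other line; values follow the sample labels, and the comparison of genotypes is the same either way. Ptprc and Adgre1, and the comparison of 236L with the 3 other lines, were singled out after values were seen. The gene most alike to a member is not reported here for every member.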

Additional observations from a re-analysis of the deposited data

How the results depend on the processing

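No paired analysis was possible because the labels give the lines of the 2 genotypes no shared replicate numbers.

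One alternative took windows of 2.5 kb on each side of the gene ends together with a gap of 1 kb. For H3K4me1, members higher in the mutant lines then numbered 1, Axl (7.36% of all genes), and Zeb2 and Cd44 did not meet the rule. Members higher numbered 5 with a gap of any amount (25.1%) and 1 with a gap of at least 5 kb (0.635%). Those lower numbered 2 with a gap of any amount (14.7%). For H3K4me2, those higher numbered 7 with a gap of any amount (13.9%) and 1, Zeb2, with at least 5 kb (0.219%). For H3K27me3, those lower numbered 2, Twist1 and Twist2, with −log10 q of at least 3 (2.67%) and 2 in the gene body alone (3.85%). They numbered 1 at equal covered length (1.45%) and 2 with a gap of at least 5 kb (3.52%). The H3K4me1 median difference was 2.96 kb with −log10 q of at least 3, 0.694 kb in the gene body, 4.60 kb with 50 kb flanks, 0.646 kb in the windows at gene ends and 2.13 kb at equal covered length; that of H3K4me2 was 1.51 kb in the gene body. KDM6A in both control lines held at 1 member with −log10 q of at least 3 (38.1%) and 3 with 1 kb (40.9%). Both marks on the same bases held at 2 members with 1 kb in control lines (4.38%), and in mutant lines at 0 with −log10 q of at least 3 (0.717%) and 1 in the gene body (4.04%). The cause was not tested.

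Leaving out 1 line at a time gave 2 to 5 members higher (7.86 to 29.7% of all genes) and 1 to 2 lower (8.72 to 15.2%) for H3K4me1, with a median from 1.13 to 2.48 kb. For H3K4me2 it gave 3 to 6 higher (2.09 to 10.3%; 6 without 236R) and a median from 1.25 kb, without 236L, to 3.93 kb. For H3K27me3 it gave 0 to 1 higher (0.471 to 4.02%), 4 to 7 lower (6.99 to 16.9%) and a median from -11.9 to -0.354 kb. Members with both marks numbered 3 to 4 in mutant lines (8.64 to 14.5%), and 4 without 236L. Leaving out a line can only widen a gap, so such counts do not measure stability.

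Of the 6 alternatives that can lose a call, all 6 kept Zeb2 in H3K4me2 and Snai1 in H3K4me1. The rule was kept under 5 by Zeb2 in H3K4me1 and Twist1 in H3K27me3, under 4 by Axl in H3K4me2 and H3K27me3 and Cd44 in H3K4me1, under 3 by Twist1 in H3K4me2 and Cd44 in H3K27me3, and under 2 by Vim in H3K27me3. Cdh2 in H3K4me1, lower without meeting the rule, was 3.77 kb higher and met it with −log10 q of at least 3. With the control H3K4me2 lists assigned by deposited name, an alternative chosen after seeing the data, 4 members held both marks in control lines, as before. Depth is unknown, so shorter lists and fewer marked bases cannot be told apart.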

Other observations

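The miR-200 family, microRNAs that target Zeb1 and Zeb2 transcripts, lies outside the 10 windows and was looked at after the values above were seen. Its members are shown because their seeds (bases 2 to 8, in capitals) fall into 2 groups that differ by a base; the mature sequences are from RefSeq on GRCm38.p6.
mmu-miR-200b-3p: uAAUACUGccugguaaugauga
mmu-miR-429-3p: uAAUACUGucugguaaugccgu
mmu-miR-200c-3p: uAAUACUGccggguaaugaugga
mmu-miR-200a-3p: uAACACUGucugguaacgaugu
mmu-miR-141-3p: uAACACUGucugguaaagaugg

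The first 3 share a seed, and so do the last 2. At the cluster of Mir200b, Mir200a and Mir429 (chr4:156053905-156055750, with 10 kb on each side), H3K4me2 covered 9.56 kb in 159-1, 8.66 kb in 1014, 3.27 kb in 236L and 7.02 kb in 236R. H3K4me1 there covered 11.47, 12.7, 0 and 12.1 kb, so 236L alone lacked it. KDM6A covered 6.75 and 6.28 kb in 159-1 and 1014. At Mir200c and Mir141 (chr6:124717914-124718390), H3K4me2 covered 14.1, 13.998, 9.32 and 10.9 kb in 159-1, 1014, 236L and 236R, so the mutant lines were the lower, while H3K4me1 was longest in 236L, with 10.8, 9.73, 16.6 and 11.49 kb. At Mir205, which also targets the Zeb factors, H3K4me2 covered 1.95, 3.98, 0 and 2.49 kb and H3K4me1 11.3, 4.82, 0 and 13.9 kb. H3K27me3 was at 0 kb in all 4 lines at Mir200c, Mir141 and Mir205, and at the Mir200b cluster it was found in 236L alone, over 0.652 kb. By the rule of at least 2 kb, H3K4me2 was lower in both mutant lines at Mir200c and Mir141, as at 6.37% of all protein-coding genes, and at neither other locus. H3K4me1 met the rule at none of these loci. Other genes in these windows were not looked at, and no test was run.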
